A study of Caenorhabditis elegans with 12 samples.

Results

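The microRNA abundance profile of day 5 control worms was described from 3 small RNA libraries, chosen by their labels from the 12 of the series. They were made from whole Caenorhabditis elegans hermaphrodites of the wild-type laboratory strain N2, a nematode worm, labelled as 5 days old and kept with 0.1% DMSO, the solvent, and no rotenone. The labels do not say from which event the days were counted, how long the solvent was given, how many worms entered a library or whether the libraries came from separate cultures, so the spread between them may be technical. The counted feature was the microRNA hairpin, the folded precursor from which a mature microRNA is cut, and all 250 hairpins of the count table were used. The other 9 libraries were not compared here.

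A mature microRNA guides Argonaute proteins to messenger RNAs that pair with its seed, a short stretch near its 5′ end, and lowers their output. Hairpins with related seeds are grouped into families whose members can act on overlapping targets, so the summed reads of a family and the reads of each member describe different things. In worms, lin-4 and let-7 time larval development, the miR-35 family is needed in embryos, and the miR-51 and miR-58 families have overlapping roles in development and growth. A hairpin's 2 arms were not counted apart in this table, so the arm that gave the reads is not known.

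The total counts were 10481528 reads in replicate 1, 9681173 in replicate 2 and 8845726 in replicate 3. Levels are given as a percentage of a library's hairpin reads or as CPM, the count scaled to 1000000 hairpin reads of that library, and are not divided by hairpin length. Both are relative: they give no number of molecules per worm, a kit's preference for certain sequences acts on every comparison between hairpins, and its size was not measured here. Replicate 3, the only library with the lane tag L007, stood apart from replicates 1 and 2, which share the tag L006. The chi-square per degree of freedom, which is near 1 for libraries that differ by sampling only, was 74.98 between replicates 1 and 2, and 270 and 347 for replicate 3 with each of them. The Spearman correlations of the counts over the hairpins were 0.992 for each of the 3 pairs. Lane and library cannot be told apart with 1 library on L007, so some values are also given without replicate 3. Others that it moves are given over all 3 libraries only.

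The reads were concentrated in few hairpins. The most abundant, mir-82, held 18.9% of the reads in replicate 1, 18.6% in replicate 2 and 21.1% in replicate 3, a mean of 19.5% ± 1.38 (SD, n = 3) and of 18.7% without replicate 3. The 5 most abundant hairpins, mir-82, mir-58a, mir-72, mir-57 and mir-80, held 48.9% ± 2.23 and the first 10 held 66.1% ± 1.33. It took 6 hairpins in replicates 1 and 2, and 5 in replicate 3, to reach 50% of the reads, and 25 in each library to reach 90%. The effective number of hairpins, which is the number of equally abundant hairpins that would give the same Shannon entropy, was 25.5, 25.9 and 23.6 in the 3 libraries, so replicate 3 was the most concentrated.

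**Figure D1:**
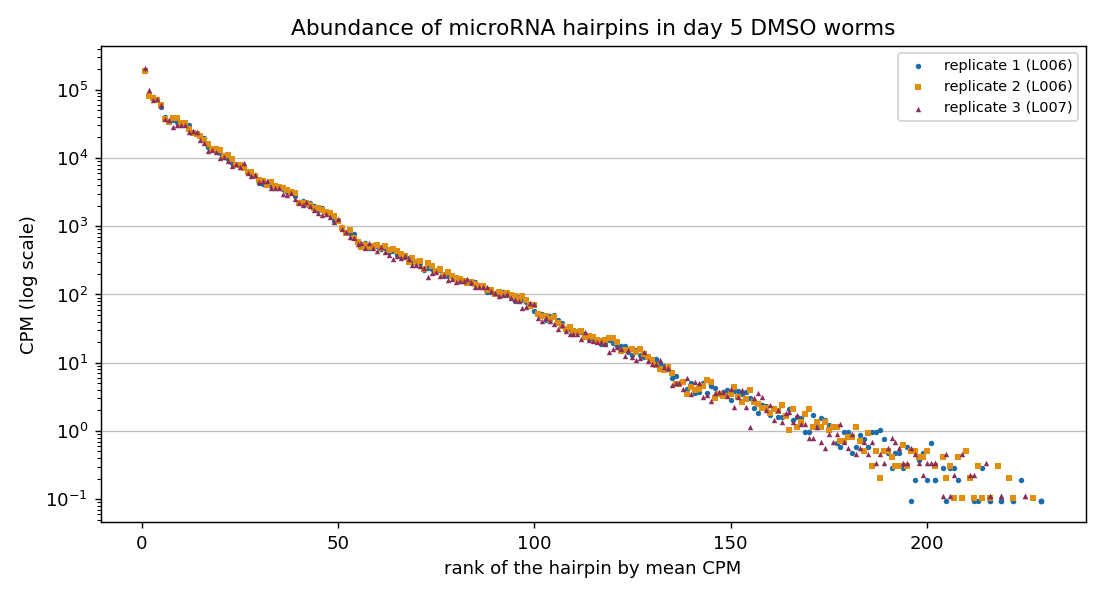
CPM of each hairpin in each of the 3 libraries (points, log axis) against the rank of its mean CPM, with grey lines at 1, 10, 100, 1000 and 10000 CPM. The 22 hairpins above the top line hold 87.8% of the reads, and the 75 with an average under 1 CPM hold 0.00189%.

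Of the 250 hairpins, 232 had a read in at least 1 library and 209 in each of the 3. By mean CPM, 175 hairpins reached 1 CPM, 131 reached 10, 93 reached 100, 50 reached 1000 and 22 reached 10000. The 50 hairpins at 1000 CPM or more were at that level in every library and together held 98.4% of the reads. The counts at some levels depend on the library: 169 hairpins reached 1 CPM in each library and 180 in at least 1. The closest to 10000 CPM were mir-237 at 10021 above it and mir-40 at 8548 below it, and mir-237 was above that level in replicate 2 only. The 1000 CPM level fell between mir-38 at 1227 and mir-248 at 944. At 100 CPM the neighbours were mir-1018 at 102 and mir-62 at 92.4, with lsy-6, mir-1829c and mir-232 also at 102 to 103.7 CPM, at 10 CPM mir-799 at 10.03 and mir-4936 at 9.71, and at 1 CPM mir-5550 at 1.06 and mir-4923b at 0.986. For the 18 hairpins with no read, a count of 0 allows up to 3 reads, which is 0.286 to 0.339 CPM in a library. This limit covers counting error only.

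The leading hairpin mir-82 is a member of the miR-58 family, the worm relatives of the fly growth regulator bantam. It was followed by its family member mir-58a with 8.27%, 8.20% and 9.83% of the reads in replicates 1, 2 and 3. Both were highest in replicate 3, and their ranges did not overlap with each other or with the next hairpin. Next came mir-72 with 7.74%, 7.57% and 7.19%, and mir-57 with 7.44%, 6.98% and 7.33%. These 2 overlapped and changed places in replicate 3, so the order between them was not resolved. Another miR-58 member, mir-80, was at rank 5 in each library with 5.57%, 5.90% and 5.93%. Behind it stood mir-90 with 3.84% ± 0.17, mir-70 with 3.46% ± 0.17 and mir-228, a hairpin of glia, with 3.45% ± 0.53 (SD, n = 3). Hairpin mir-228 was at rank 7, 6 and 11 in the 3 libraries, the widest span of ranks among the first 10.

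**Figure D2:**
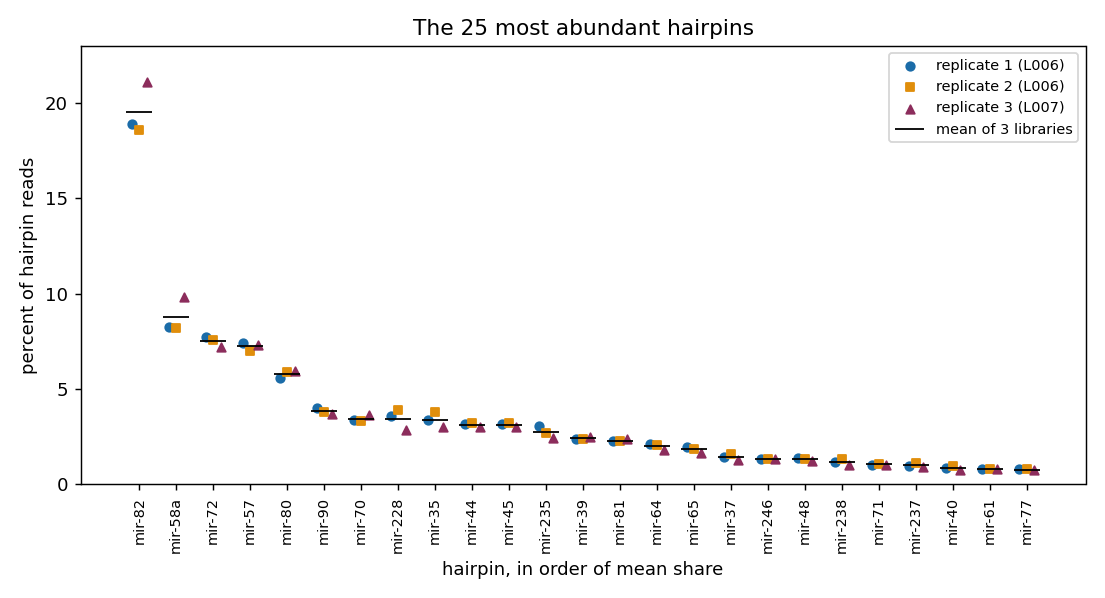
Percentage of hairpin reads in each of the 3 libraries (points) for the 25 most abundant hairpins, with the mean as a black line. The 3 libraries lie between 18.6% and 21.1% for mir-82, and mir-228 is the hairpin of the first 10 with the widest relative spread.

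Further down, mir-235, a relative of vertebrate miR-92 that keeps progenitor cells quiet in starved larvae, held 2.73% ± 0.31. The longevity hairpin mir-71 held 1.05% ± 0.03 and stood at 10417, 10780 and 10176 CPM. The stress hairpin mir-34 held 0.16% with 1616, 1606 and 1535 CPM, at rank 46 to 47. The same 9 hairpins were in the first 10 of all 3 libraries, 19 in the first 20 and 29 in the first 30. Of the first 30 hairpins by mean, 10 had all 3 libraries above every library of the next hairpin in the order, so 20 neighbours overlapped with the hairpin after them.

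In the WBcel235 annotation mir-82 lies in an intron of gid-2 on its strand (chromosome X, 2435258 to 2435354, minus strand). The hairpin mir-81 lies within the same gene on the other strand (2431072 to 2431179), so these family members are neighbours on opposite strands. Of the others, mir-58a lies in an intron of Y67D8A.2 (chromosome IV, 3233254 to 3233350, plus strand). The hairpins mir-72 (chromosome II, 2452838 to 2452936, plus strand), mir-57 (chromosome II, 7850499 to 7850597, minus strand) and mir-80 (chromosome III, 8865270 to 8865367, minus strand) overlap no protein-coding gene.

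Summed over its 5 counted members, the miR-58 family held 34.98% of the reads in replicate 1, 34.96% in replicate 2 and 39.3% in replicate 3, a mean of 36.4% ± 2.48 and of 34.97% without replicate 3. Within the family mir-82 gave 53.7% of the reads, mir-58a 24.1%, mir-80 15.9% and mir-81 6.30%. The remaining member, mir-58b, had 2, 3 and 3 reads in the 3 libraries. The listed name mir-1834 does not occur among the counted hairpins, and whether it is a hairpin separate from those counted was not checked. The range of the miR-58 family was far above that of every other family: the next, the miR-35 family, held 8.70% ± 0.60.

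The miR-35 family of oocytes and embryos had all 8 members above 10 CPM, a level that 131 of the 250 hairpins reached. It held 8.59%, 9.35% and 8.16% of the reads, and its range overlapped with that of the miR-72 family, which held 8.53%, 8.33% and 8.08%. Its members were unequal, with mir-35 giving 39.0% of the family, mir-39 27.8%, mir-37 16.6% and mir-40 9.83%. The lowest were mir-42 at 179 ± 9.25 CPM and mir-41 at 49.7 ± 3.93 CPM. The members also differed in which library was highest. Hairpin mir-35 stood at 33557, 37977 and 30148 CPM, mir-37 at 14287, 16153 and 12767, and mir-40 at 8379, 9679 and 7586, each highest in replicate 2 and lowest in replicate 3. Its neighbour mir-39 stood at 24032, 23610 and 24972 CPM and was lowest in replicate 2 and highest in replicate 3.

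Several families were carried by a single member. In the miR-72 family mir-72 gave 90.2% of the reads, mir-73 9.21% and mir-74 0.58%. In the miR-50 family, which held 4.07% ± 0.18 of all reads, mir-90 gave 94.3%, mir-50 5.49% and mir-62 0.23%. In the lin-4 family, with 1.04% ± 0.11 of all reads, mir-237 gave 96.1%, while lin-4 itself, the founding timing microRNA of early larvae, stood at 440, 463 and 328 CPM. The mean of mir-237 was 24.4 times that of lin-4, and the 2 did not overlap in any library.

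The let-7 family, named after a timing microRNA of larvae, held 1.94%, 1.84% and 1.68% of the reads. Its leading member was mir-48, with 72.4% of the family, followed by mir-84 with 12.2% and let-7 with 10.1%. Hairpin let-7 stood at 1991, 1830 and 1714 CPM and mir-84 at 2355, 2225 and 2079, so mir-84 was above let-7 in each library and their ranges did not overlap. The remaining members were lower: mir-793 at 521, mir-241 at 216, mir-794 at 132 and mir-795 at 85.5 CPM on average. The make-up of the family hardly moved, with mir-48 at 72.3% to 72.6% of it in the 3 libraries.

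In other families the reads were spread over more members. The miR-63 family held 4.92% ± 0.35 of the reads, with mir-64 at 40.7% and mir-65 at 37.2% of the family, then mir-229, mir-66 and mir-63. The miR-51 family, relatives of vertebrate miR-100, held 1.46% ± 0.11, with mir-54 at 30.9%, mir-52 at 27.5% and mir-55 at 21.9% of the family. All 6 members were above 100 CPM, as were 93 of the 250 hairpins. The stress-linked miR-238 family held 1.94% ± 0.15, with mir-238 at 60.4%, mir-239b at 28.9% and mir-239a at 10.7%. Its range overlapped with that of the let-7 family. The miR-2 family held 0.175% ± 0.0150, most of it from mir-2.

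The miR-44 family held 7.05% ± 0.21 of the reads, but its share is uncertain. Hairpins mir-44 and mir-45 had 332083 and 331109 reads in replicate 1, 310686 and 310172 in replicate 2, and 265815 and 265411 in replicate 3, a difference of at most 0.293%. How reads that match both were counted is not given in the sources used here. If each read was counted for both, keeping only the larger count in each library leaves the family with 4.06% of the reads. That is below the miR-63 family with 5.08% and the miR-50 family with 4.20% of the same total. If the reads were split between the 2 hairpins, adding their counts leaves the family at 7.05%. Which of these holds was not tested. The third member mir-61, which acts in the Notch signalling of vulval precursor cells, stood at 8090, 7865 and 8073 CPM, and mir-247 at 3.52 ± 0.66 CPM.

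**Figure D3:**
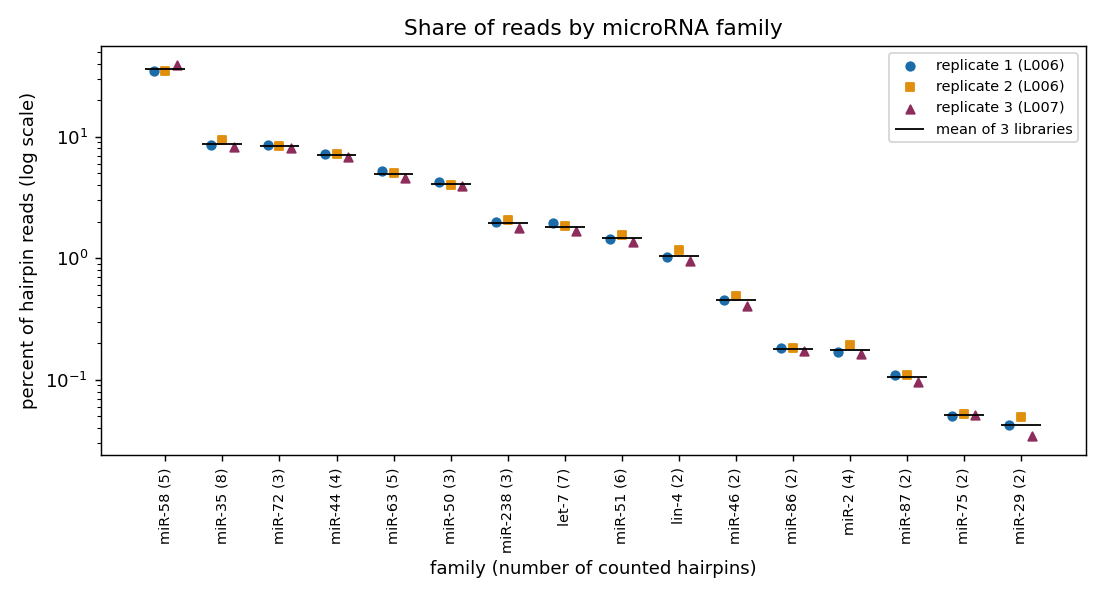
Percentage of hairpin reads (log axis) in each of the 3 libraries (points) for 16 families, with the mean as a black line and the number of counted hairpins in brackets. The miR-58 family is the only one highest in replicate 3, and 14 of the 16 families are lowest there.

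Together the 16 families held 60 hairpins and 76.7% ± 0.68 of the reads, and the other 190 hairpins held 23.3%. With each family taken as 1 unit and each remaining hairpin as a unit of its own, 3 units reached 50% of the reads and 12 reached 90%. The leading units outside the families were mir-57, a relative of miR-10 that is expressed in the tail, with 7.25%, and then mir-70, mir-228 and mir-235. In replicate 3, where the miR-58 family held more of the reads, 14 of the 16 families had their lowest share. Shares add to a fixed total, so a higher share of 1 family lowers the others by arithmetic. The part of lane or library in the difference of replicate 3 was not tested.

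The samples are labelled as whole worms, and the listed markers of muscle, intestine, neurons, glia, gonad and oocytes all had reads in each library. So did 209 of the 250 hairpins in all, so detection of the markers says little about the tissues. The intestinal hairpin mir-60 stood at 2133, 2203 and 2296 CPM, and mir-1 of body wall muscle at 482, 496 and 567 CPM. The marker of the gonadal sheath, mir-246, was high and even, at 13556, 13358 and 13248 CPM. The neuronal markers were lower than mir-60, mir-1 and mir-246. They were above the median hairpin, which stood at 13.7, 15.1 and 12.3 CPM in the libraries. Hairpin lsy-6, which sets the identity of a single taste neuron, stood at 110, 100.0 and 97.1 CPM. It was followed by mir-124 of sensory neurons at 30.8, 33.8 and 26.3, and mir-791 of gas-sensing neurons at 28.3, 28.7 and 22.5. From whole worms, few cells of a type and little RNA per cell cannot be told apart.

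Hairpins that lie close together on a strand are often cut from 1 transcript. With gaps of at most 1 kb, 16 clusters held 48 hairpins and 19.8% ± 0.96 of the reads. In 12 of them every member reached 1 CPM on average, and the highest member exceeded the lowest by 1.42 to 681 times, with a median of 10.8 times. Without replicate 1 or replicate 2 that median fell to 5.97 or 5.80 times, because mir-1819 then dropped under 1 CPM and 11 clusters were left.

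The largest cluster by reads, mir-35 to mir-41 (chromosome II, 11537608 to 11538404, plus strand), held 8.68% of the reads. Its hairpins did not follow their order: mir-35, mir-37, mir-39 and mir-40 stood at 33894, 14402, 24204 and 8548 CPM on average, and mir-36 and mir-38 between them at 4469 and 1227. The last, mir-41, was 681 times lower than mir-35. The cluster of mir-229, mir-64, mir-65 and mir-66 (chromosome III, 2172452 to 2173206, plus strand), within gcn-1, was more even, with a ratio of 5.29. In the pair mir-240 and mir-786 (chromosome X, 7882622 to 7882840, plus strand), of which mir-786 acts in the defecation rhythm, mir-240 was 46.2 times higher. Hairpin mir-61 was 21.8 times higher than mir-250, mir-73 was 15.8 times higher than mir-74, and mir-44, with the doubt about its reads given above, was 240 times higher than mir-43.

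**Figure D4:**
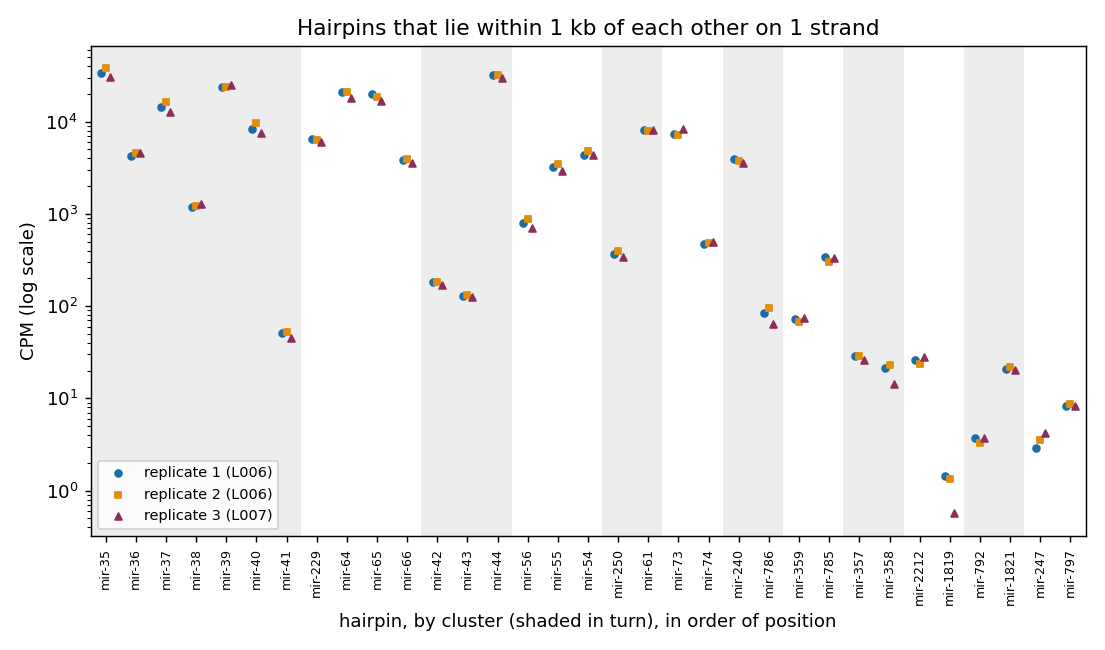
CPM (log axis) in each of the 3 libraries (points) for the 12 clusters of hairpins within 1 kb on a strand whose members all reached 1 CPM on average. Clusters are shaded in turn in order of their reads, with hairpins by position within each, and the first, mir-35 to mir-41, spans from 33894 to 49.7 CPM on average.

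By position, chromosome II with 47 counted hairpins held 31.8% ± 0.92 of the reads and chromosome X with 70 hairpins held 27.0% ± 1.303. Without its leading hairpin mir-82 the share of chromosome X was 7.44%, and without mir-72 that of chromosome II was 24.3%. Chromosome II also carries mir-44 and mir-45, with the doubt about their reads given above. The 64 hairpins in an intron of a protein-coding gene on their strand held 42.4% ± 1.98 of the reads, and 22.8% without mir-82. The 144 hairpins that overlap no protein-coding gene held 45.3% ± 1.53, and 37.8% without mir-72. Both ends of 8 hairpins lay within 3 bases of the ends of an intron, the arrangement of mirtrons, which are cut out by splicing. These 8 held 0.0143% of the reads, led by mir-62 in ugt-50 with 952, 942 and 789 reads, mir-4816 in T09B4.2 with 399, 330 and 317, and mir-1020 in T16G12.1 with 128 in each library.

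Hairpins numbered 1000 or above, which were mostly named in later surveys, made up 121 of the 250 and held 0.205% ± 0.00748 of the reads. Of these, 59 reached 1 CPM, 9 reached 100 and 10 had no read, and their median was 0.903 CPM. The other 129 had a median of 392 CPM, with 84 at 100 CPM or more and 8 without a read. The most abundant of the later group were mir-5592-2 and mir-5592-1, at 288 and 284 CPM and at rank 70 and 71. They lie on nearly the same stretch of chromosome X on opposite strands, mir-5592-1 at 13759245 to 13759308 (minus) and mir-5592-2 at 13759247 to 13759310 (plus). Their counts differed by at most 4.601% in any library. A search over many pairs also found unrelated names as close, such as mir-36 and mir-54 at 4.08%. As those were picked from many pairs, they are no yardstick for a pair named by its position. Whether the overlapping pair shares reads cannot be read from the counts alone and was not tested. Next came mir-1022 at 221, 221 and 214 CPM, mir-1829b at 166 ± 10.01 and mir-2209a at 161 ± 5.18.

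The spread between libraries was small but larger than counting error for most abundant hairpins. Among the 93 hairpins at 100 CPM or more, the median coefficient of variation was 6.10%, against 0.807% from counting alone, and 40 were under 5%, 20 over 10% and 1 over 20%. Without replicate 3 the median was 3.08%. The chi-square per degree of freedom had a median of 41.8, and of 14.7 without replicate 3. It was under 3 for 14 of the 93 hairpins, among them mir-63, mir-79, mir-75 and mir-794. Replicate 3 was the lowest of the 3 libraries for 61 of the 93 and the highest for 18, and its distance from the mean of the others was larger than the distance between replicates 1 and 2 for 66. As CPM add to a fixed total, the higher share of the miR-58 family in replicate 3 lowers the CPM of other hairpins there by arithmetic. These counts are therefore no measure of a fall in each hairpin.

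**Figure D5:**
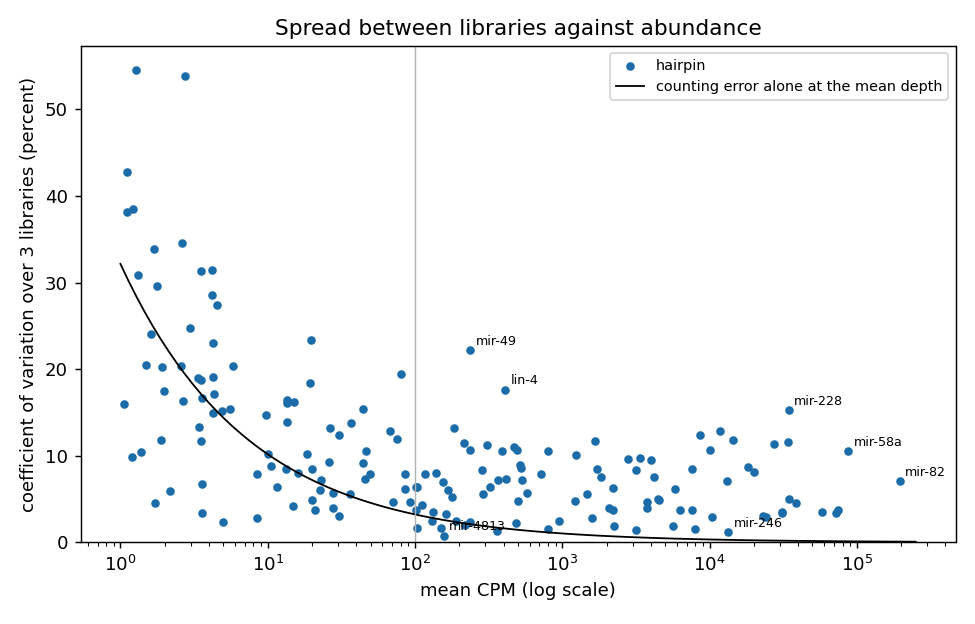
Coefficient of variation over the 3 libraries (percent) against mean CPM (log axis) for the 175 hairpins whose mean reached 1 CPM. The curve is the value that counting error alone gives at the mean depth, and the grey line marks 100 CPM, above which 1 hairpin, mir-49, exceeds 20%.

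The most variable of these hairpins was mir-49, a miR-29 relative, at 243, 285 and 181 CPM, with a coefficient of variation of 22.2%. It was followed by lin-4 with 17.6%, mir-228 with 15.2%, mir-83 with 13.3% and mir-238 with 12.8%, and then by mir-40, mir-37, mir-51, mir-35 and mir-241 with 11.5% to 12.4%. All 10 were lowest in replicate 3. Both counted relatives of miR-29, mir-49 and mir-83, were among them, and for each replicate 2 was the highest. The hairpins that were most above the other libraries in replicate 3 were mir-58a, mir-1, mir-73, mir-1820 and mir-85, by 0.18 to 0.26 on the log2 scale. The least variable were mir-4813 with 0.747%, mir-246 with 1.17%, mir-79 with 1.301%, mir-244 with 1.45% and mir-63 with 1.52%. For mir-4813 the counts were 1653, 1511 and 1375, and its chi-square per degree of freedom of 0.0858 was below what counting gives on average.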

How the data were processed

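Small RNA libraries of whole worms were made with a TruSeq small RNA kit, per the labels' protocols. The authors deposited raw counts, whole numbers of reads for each hairpin, in 1 column per library and without normalization. Per the submitters' processing notes, SAMtools 1.3.1-9, BWA 0.7.12-r1039, Trimmomatic 0.36 and bcl2fastq 1.8.4 were used, with no role stated. The build, the set of precursor sequences and how multiply matching reads were assigned are not stated in the labels or notes.

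Shares and CPM were computed from the counts and library totals with Python 3.11.15, pandas 2.3.3, numpy 2.4.6 and scipy 1.17.1, as mean and SD over the 3 libraries. No group was compared and no test was made. The precision from depth is high: the exact 95% binomial interval of the share of mir-82 in replicate 3 was 21.09% to 21.15%. Such intervals cover counting error only. TMM and RLE factors came from edgeR 4.0.16 (R 4.3.3) as alternatives. The statistics were tested on simulated counts.

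Of the 250 hairpins, 247 were placed by name in the Ensembl release 115 annotation of WBcel235, 1 by its RefSeq symbol, and 2 were not placed. Families and markers are hand-written lists, and the members and lists were chosen with earlier results of these data known. Their seeds were not checked and no sequence is printed, since the annotation used holds none. Named hairpins were the 30 most abundant, the listed families and markers, the neighbours of each CPM level, the 10 most and 5 least variable at 100 CPM or more, and cluster members. Examples from hairpins in introns, from late-numbered hairpins, from those with low chi-square, from the 5 most above the others in replicate 3, and mir-34 were chosen after their values were seen.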

Additional observations from a re-analysis of the deposited data

How the results depend on the processing

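For 27 results, 170 values were recomputed under alternatives, and 147 stayed within 1 SD of the library values or, for counts and medians, within 1.5 times. With 3 libraries, the mean share of a fixed set of hairpins cannot move by 1 SD when a library is left out. For such shares that alternative could not fall outside the limit, so the 147 do not measure robustness to it. In 1 alternative, mir-44 and mir-45 were counted as 1 hairpin, and mir-5592-1 and mir-5592-2 as another. The larger count of each pair was kept and the other dropped, which is apt only if each read was counted for both. These pairs were chosen with earlier results known and not for being the closest. The first 10 then held 68.3% of the reads, the miR-72 family 8.59% and the miR-44 family 4.06%. Without the reads of mir-82 the total is smaller by construction: the effective number rose to 29.6, the miR-58 family held 21.0%, and the others rose to 10.8% (miR-35), 10.3% (miR-72), 8.76% (miR-44), 6.12% (miR-63), 5.06% (miR-50), 2.41% (miR-238), 2.26% (let-7), 1.81% (miR-51), 1.295% (lin-4) and 0.218% (miR-2). With a library left out, the median coefficient of variation ranged from 3.08% to 6.53%, the median chi-square per degree of freedom from 14.7 to 50.03, and the median ratio within clusters from 5.80 to 10.6. The lowest coefficient and chi-square were those without replicate 3. The coefficient was 9.75% over all hairpins with a read in each library, where counting error is larger, and 5.19% and 5.29% with TMM and RLE. With only the reads outside the miR-58 family, a choice made after seeing the data, it was 5.14%. The median chi-square was 17.2 from 10 CPM upward and 210 from 1000 CPM upward, as it grows with depth. With up to 10 kb between neighbours there were 26 clusters. Families by a shorter seed were not run for want of sequences. No paired analysis was possible because a single group was described. Shares of hairpins under about 1 CPM rest on few reads.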

Other observations

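Families differed in how far their total and their make-up moved between libraries. The miR-75 family held 0.0506%, 0.0520% and 0.0513% of the reads in replicates 1, 2 and 3, and within it mir-79, which acts in neuronal migration, gave 70.9%, 70.8% and 70.5%, so both were even. In the miR-46 family mir-46 gave an even 61.7%, 61.9% and 61.3% of the family, while the family's share of all reads was 0.456%, 0.488% and 0.406%. In the miR-238 family, with 1.97%, 2.07% and 1.78% of all reads, the make-up moved as well: mir-238 gave 60.3%, 63.5% and 56.9% of the family and mir-239b 28.7%, 26.5% and 31.9%. These families were picked for this after their values were seen.

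Within 10 kb on the minus strand of chromosome III (8865270 to 8874084) lie mir-80, mir-238 and mir-90, which belong to 3 families and together held 10.8% ± 0.17 of the reads (SD, n = 3), the largest share of any group of hairpins at that distance. Hairpins with 2 annotated arms, 195 of those placed, held 99.8% of the reads, and the 53 with 1 annotated arm held 0.211%, with 14 of the 18 hairpins that had no read among them.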
